A study of Mus musculus with 36 samples.

Results

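Mutant soleus was compared with mutant TA (tibialis anterior): the 9 ∆Ig3-MuSK soleus libraries against the 9 ∆Ig3-MuSK TA libraries, 18 of the 36 RNA-seq libraries of the study. The members were taken by muscle and genotype alone, and the count tables of the muscles were joined by Ensembl gene ID and scaled together. The other 18 libraries, 9 soleus and 9 TA muscles of WT mice, served to ask whether a difference between the mutant muscles was that of WT muscles. All mice were C57BL/6 males of 3 months, and each library was made from total RNA of whole muscle. The legend for these data states 1 muscle per animal, but 8 label numbers are each shared by a mutant soleus and a mutant TA library. Every mutant mouse was homozygous for an allele of Musk made by CRISPR-Cas9, from which exons 6 and 7 and the intron between them are missing, in all cells and from the germline. These exons encode the third immunoglobulin-like domain of the receptor. Since the soleus and TA libraries carry the same allele, the muscles differed and the genotype did not.

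The soleus is a postural muscle rich in slow and fast oxidative fibers, and the TA is a fast muscle that lifts the foot. A myofiber type is defined by the myosin heavy chain that it makes: Myh7 in slow type I fibers, Myh2 in type IIa, Myh1 in type IIx and Myh4 in the fast glycolytic type IIb. Slow fibers also use their own troponins, light chains and calcium pump, and they burn fat in mitochondria, while fast glycolytic fibers hold more enzymes of glycogen breakdown and glycolysis. MuSK (muscle-specific kinase) is the receptor tyrosine kinase that gathers acetylcholine receptors at the neuromuscular junction, and it is also a co-receptor for BMPs (bone morphogenetic proteins), which bind through the domain lost here.

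The regions just upstream of Myh7 and Myh4, the type I and type IIb myosin genes, are shown because their transcripts set the slow and the fast muscle apart. Both are the 250 bases before the RefSeq start on build GRCm38.p6, written 5′ to 3′ on the strand of the gene. Capitals mark an E-box (CANNTG, the kind of site bound by MyoD family factors), an MCAT element (CATTCC, a kind of site bound by TEAD factors) or a TATA box (TATAAA), on either strand.
Myh7, chr14:54994627-54994876, minus strand: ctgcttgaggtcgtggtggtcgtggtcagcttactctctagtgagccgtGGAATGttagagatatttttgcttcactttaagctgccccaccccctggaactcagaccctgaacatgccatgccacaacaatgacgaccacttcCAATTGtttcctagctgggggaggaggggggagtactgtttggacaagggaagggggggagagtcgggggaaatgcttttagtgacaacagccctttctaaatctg
Myh4, chr11:67237562-67237811, plus strand: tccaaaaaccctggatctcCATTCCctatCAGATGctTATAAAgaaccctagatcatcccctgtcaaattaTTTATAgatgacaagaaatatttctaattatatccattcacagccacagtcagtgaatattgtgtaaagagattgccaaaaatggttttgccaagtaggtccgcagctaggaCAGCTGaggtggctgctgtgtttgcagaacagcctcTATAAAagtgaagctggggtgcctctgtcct
The Myh7 window held 1 E-box and 1 MCAT element, and the Myh4 window held 2 E-boxes, 1 MCAT element and 3 TATA boxes, the last of them 31 bases before the start. Among 32851 windows of this length before mouse genes, 66.2% held an E-box, 12.6% an MCAT element and 12.4% a TATA box. The searched motifs did not overlap one another in these windows. A match is a description of the letters and not of a bound site.

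The counts on genes summed to between 46397769 and 60426556 in the mutant soleus and between 56584208 and 78660422 in the mutant TA, so the TA was sequenced more deeply, and depth and muscle cannot be told apart. Whether the muscles were sequenced in 1 run was not given in the sources used here. A pair of libraries stood apart in gene groups described below. ∆Ig3-MuSK soleus replicate 8 had low tendon and matrix transcripts, and ∆Ig3-MuSK TA replicate 3 had the highest respiratory chain and ribosomal protein transcripts of its muscle. In these whole muscles fewer cells of a type and less RNA per cell cannot be told apart. Levels are given in CPM, TMM-scaled counts relative to the library total that are not divided by gene length, and differences as log2 of soleus over TA, so that a positive value is higher in the soleus.

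Muscle set most of the variation among the mutant libraries. It accounted for 68.8% of the variance of log2 CPM over 19910 tested genes, and the first principal component, with 69.3% of the variance, placed every soleus library (51.2 to 63.8) apart from every TA library (−71.2 to −50.6). In edgeR's quasi-likelihood test, 5556 genes were higher in the soleus (27.9% of those tested) and 5580 were higher in the TA (28.0%). Calls required a difference of at least 1.2-fold with an adjusted p of less than 0.05. At a difference of at least 2-fold, 1542 genes were higher in the soleus (7.74%) and 1261 in the TA (6.33%). For 3011 genes (15.1%) every soleus library was above every TA library, and for 3068 genes (15.4%) every TA library was above every soleus library. With such shares of all genes called, counts in the gene groups below are read against these percentages.

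Slow myosin separated the mutant muscles completely. Myh7 (ENSMUSG00000053093, chr14:54970684-54994626, minus strand) lay at 6673 to 10377 CPM (median 7866) in the soleus libraries and at 2.68 to 37.4 CPM (median 6.09) in the TA libraries (log2 difference 9.61, SE 0.57, adjusted p = 2.93e-12). Even TA replicate 4, whose Myh7 level was the highest of the TA, stayed far under the lowest soleus library. The fast type IIb myosin Myh4 (ENSMUSG00000057003, chr11:67238029-67260446, plus strand) was at 249.8 to 4853 CPM (median 2274) in the soleus and at 15436 to 33103 CPM (median 22467) in the TA (log2 difference −3.20, SE 0.35, adjusted p = 6.28e-08). The groups did not overlap, although Myh4 varied widely within the soleus, with the least in replicate 6 and the most in replicate 1. Myh2 (type IIa) was at 6835 to 9059 CPM (median 8123) in the soleus and at 469 to 833 CPM (median 683) in the TA, without overlap (log2 difference 3.61, SE 0.12, adjusted p = 1.43e-16). Myh1 (type IIx) was at 3995 to 8046 CPM (median 4898) in the soleus and at 2628 to 8091 CPM (median 5405) in the TA, ranges that overlapped, and did not pass the test (log2 difference 0.027, SE 0.17, adjusted p = 0.898).

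Per kilobase of exon, these 4 genes can be set against one another within a library. The length used was that of all annotated exons of a gene merged. It was 8616 bases for Myh7, 7137 for Myh2, 6353 for Myh1 and 6016 for Myh4. The size of each share depends on these lengths, and other lengths were not tried. Myh7 made up 28.4 ± 4.36% of the 4 adult myosin heavy chain transcripts in the mutant soleus and 0.0260 ± 0.0261% in the mutant TA (SD, n = 9 each; exact permutation test over 48620 assignments, 2-sided, p = 4.11e-05, the smallest it can give; 5.48e-05 adjusted over the 4 shares). The share of Myh2 was 34.1 ± 3.77% in the soleus and 2.02 ± 0.419% in the TA, with the same p. Myh4 took 12.0 ± 6.51% in the soleus and 79.5 ± 5.43% in the TA, again with the same p. The Myh1 share was 25.5 ± 5.39% in the soleus and 18.5 ± 5.04% in the TA (exact permutation test, p = 0.0058). Unlike the other shares, those of Myh1 overlapped: they ran from 19.2% to 37.0% in the soleus and from 6.91% to 24.3% in the TA. TA replicate 1 had the highest Myh4 share (92.0%) and the lowest Myh1 share, and soleus replicate 6 the lowest Myh4 share (1.21%). The WT soleus held 32 ± 8.13% Myh7, 38.2 ± 5.43% Myh2, 21.8 ± 5.86% Myh1 and 7.94 ± 9.00% Myh4 (SD, n = 9), each in a range that overlapped that of the mutant soleus, and the WT TA held 79.1 ± 4.90% Myh4.

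**Figure D1:**
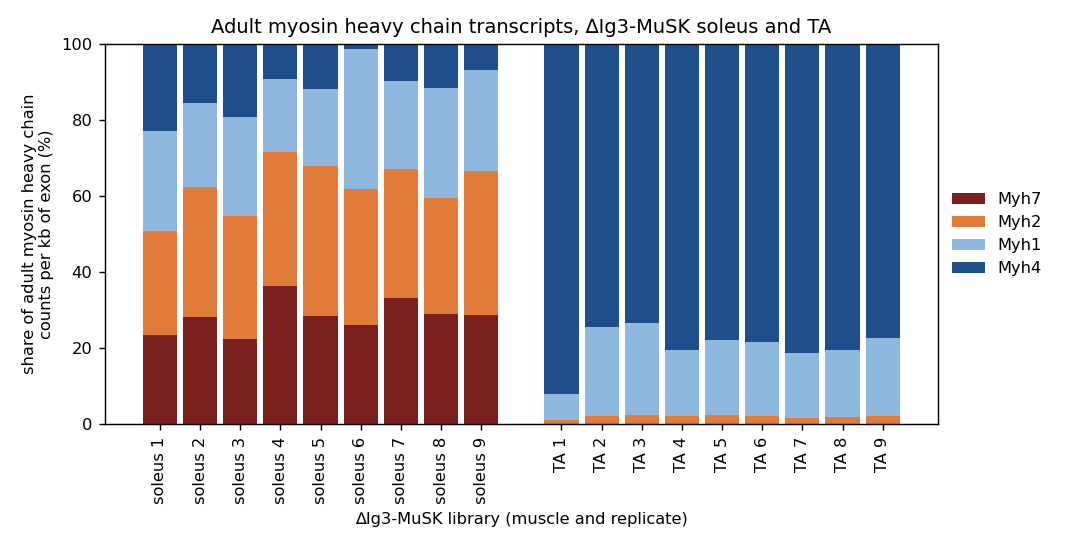
Shares of Myh7, Myh2, Myh1 and Myh4 in their summed counts per kilobase of exon (percent, y axis) in each ∆Ig3-MuSK soleus and TA library (n = 9 each). Each stacked bar is a library, and its colors are the genes. Myh7 and Myh2 shares of every soleus library lie above those of every TA library, Myh4 shares lie below, and Myh1 shares overlap.

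The other myosin heavy chains were called in both directions. Myh6, a cardiac chain, was at 518.6 to 851 CPM (median 617) in the soleus and at 3.09 to 7.92 CPM (median 4.18) in the TA (log2 difference 7.20, SE 0.20, adjusted p = 1.45e-17); it is a near copy of its neighbor Myh7, and reads may have been split between them. Myh7b, an ancient slow-type chain, was higher in the soleus (3.73, SE 0.12), as was the embryonic chain Myh3 by a small amount (0.28, SE 0.076). The Myh3 call fell under the fold limit without soleus replicate 2 or 8 or TA replicate 3, 7, 8 or 9 (0.24 at the least). The neonatal chain Myh8 (−0.52, SE 0.10) and the extraocular chain Myh13 (−0.40, SE 0.12) were higher in the TA. Mhrt, a noncoding RNA transcribed against Myh7, showed a difference of 9.24, but 39.9% of its exons overlap Myh7 on the opposite strand and the libraries do not tell strands apart.

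All 16 of 16 listed slow contractile genes were higher in the soleus, with no overlap between the muscles for any of them and a median log2 difference of 5.31, against −0.0083 over all tested genes. The largest differences after Myh7 were in the slow light chain Myl2 (8.81), slow troponin C Tnnc1 (8.81) and slow troponin T Tnnt1 (8.76). Tnnc1, for example, was at 1129 to 1647 CPM (median 1329.5) in the soleus and at 1.48 to 7.88 CPM (median 2.38) in the TA. Of 14 fast contractile genes 13 were higher in the TA, without overlap, and Myh1 alone was not called; the median was −1.77. Pvalb, the calcium buffer parvalbumin of fast fibers, was at 271 to 641 CPM (median 416) in the soleus and at 6162 to 8105 CPM (median 6706) in the TA (log2 difference −3.97, SE 0.15, adjusted p = 1.54e-15). Actn3, the α-actinin of fast fibers, was at 152 to 833 CPM (median 545.2) in the soleus and at 4954 to 7325 CPM (median 6321) in the TA (log2 difference −3.66, SE 0.23, adjusted p = 1.07e-11).

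Calcium handling genes were split, with 8 of 27 higher in the soleus and 13 higher in the TA. The slow calcium pump Atp2a2 (SERCA2) was at 4333 to 5854 CPM (median 4745) in the soleus and at 28.9 to 56.2 CPM (median 30.9) in the TA (log2 difference 7.15, SE 0.15, adjusted p = 1.14e-19). Its fast counterpart Atp2a1 was higher in the TA in every library but was still abundant in the soleus (−1.01, SE 0.073). Sln, encoding the pump inhibitor sarcolipin, had 38.2 to 101 CPM (median 55.0) in the soleus and 0.415 to 2.16 CPM (median 1.05) in the TA (log2 difference 5.59, SE 0.25, adjusted p = 2.85e-14). The calcium-storing calsequestrins diverged: Casq2, the slow and cardiac form, was higher in the soleus (2.81) and Casq1, the fast form, in the TA (−1.25). Rcan1, a target and inhibitor of calcineurin, was higher in the soleus (1.84), and the calcium-calmodulin kinase Camk2a was higher in the TA (−2.32).

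Among 39 regulators linked to fiber type, 19 were higher in the soleus and 11 in the TA. Prox1, a transcription factor of slow fibers, was at 14.7 to 24.0 CPM (median 18.9) in the soleus and at 0.759 to 1.74 CPM (median 1.12) in the TA (log2 difference 4.05, SE 0.13, adjusted p = 1.29e-16). The estrogen-related receptors Esrrb (2.92) and Esrrg (2.59), which act on oxidative genes, were higher in the soleus in every library. Maf, one of the large Maf factors of type IIb fibers, was at 22.7 to 33.4 CPM (median 29.0) in the soleus and at 200.4 to 328 CPM (median 239) in the TA (log2 difference −3.12, SE 0.10, adjusted p = 1.17e-16), and Mafa followed (−2.49). Also higher in the TA were Eya4, a transcription cofactor (−2.30), the splicing factor Rbfox1 (−1.31) and Sox6, a repressor of slow genes (−1.19). Ppargc1a, the mitochondrial coactivator PGC-1α, was at 27.7 to 61.8 CPM (median 32.5) in the soleus and at 23.4 to 40.5 CPM (median 27.8) in the TA; the ranges overlapped and the difference was small (log2 difference 0.36, SE 0.14, adjusted p = 0.0276). It was no longer called without soleus replicate 4 or 5 or TA replicate 1 or 2 (0.24 to 0.33).

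Genes that pattern the limb were called in both directions. Of 38 listed position genes 32 passed the filter, 12 of them higher in the soleus and 11 in the TA, with a median of −0.026 that turned positive when libraries were scaled by their totals alone (0.019) or without TA replicate 3 (0.0072). En1, a homeobox factor, was at 7.39 to 11.1 CPM (median 9.63) in the soleus and at 0.477 to 0.725 CPM (median 0.618) in the TA (log2 difference 3.96, SE 0.094, adjusted p = 1.31e-18). Barx2, a homeobox factor of myogenic cells, was at 35.5 to 43.6 CPM (median 38.1) in the soleus and at 1.98 to 4.00 CPM (median 2.56) in the TA (log2 difference 3.78, SE 0.11, adjusted p = 6.58e-17). Emx2 (2.78) and, at a low level, Hoxd10 (2.11) were higher in the soleus as well. On the TA side the differences were smaller, and the largest well-expressed one, Hoxa11 (−1.05), shares 35.0% of its exon length with a gene on the opposite strand.

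Of 35 genes of glycolysis and glycogen, 25 were higher in the TA and 7 in the soleus (median −1.08). Pfkfb3, which makes an activator of phosphofructokinase, had the largest difference (−3.59) but a wide spread in the TA (63.4 to 613 CPM (median 241)). Gpd2, the mitochondrial glycerol-phosphate dehydrogenase, was at 19.9 to 27.0 CPM (median 25.1) in the soleus and at 189.7 to 254 CPM (median 229) in the TA (log2 difference −3.22, SE 0.069, adjusted p = 1.79e-19). Slc16a3, the lactate exporter MCT4, was higher in the TA (−3.17), and Slc16a1, the transporter MCT1 used for lactate uptake, was higher in the soleus (1.26). The lactate dehydrogenase subunits moved apart in the same way: Ldhb, the heart form, was at 598 to 779 CPM (median 714) in the soleus and at 34.7 to 83.4 CPM (median 57.8) in the TA (log2 difference 3.55, SE 0.12, adjusted p = 3.68e-16), and Ldha was higher in the TA (−1.47).

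Genes of fatty acid use were higher in the soleus in 29 of 32 cases and in none higher in the TA (median 0.98). Lpl, lipoprotein lipase, was at 1972 to 2442 CPM (median 2295) in the soleus and at 177 to 327 CPM (median 280.2) in the TA (log2 difference 2.99, SE 0.095, adjusted p = 1.29e-16). Fabp3, the fatty acid carrier of muscle (2.15), Plin5, a lipid droplet protein (1.73), and Cd36, a fatty acid transporter (1.53), followed. Cpt1b, the gate of mitochondrial fatty acid entry, was higher too (0.79), although 81.4% of its exon length overlaps a gene model. The other 3 genes were not called.

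The oxidative machinery itself differed far less. In the citrate cycle, 8 of 18 genes were higher in the soleus and 0 in the TA, led by Idh2 (3.26) and Mdh1 (1.27). Citrate synthase Cs was not called at the fold limit (0.22, SE 0.050). Idh2, the mitochondrial NADP-dependent isocitrate dehydrogenase, was at 1115 to 1598 CPM (median 1397) in the soleus and at 97.1 to 204 CPM (median 144) in the TA. Of 36 nuclear complex I subunits, 8 were higher in the soleus and 5 in the TA, with a median difference of 0.0050 that became −0.0064 with upper-quartile factors and −0.0047 without soleus replicate 8. For complexes II to V, 16 of 42 were higher in the soleus and 3 in the TA (median 0.11), none by 2-fold in either direction. Of 13 mitochondrially encoded genes 4 were higher in each muscle. TA replicate 3 had a summed complex I level of 6930 CPM, against 5201 to 5461 CPM in the other TA libraries. Without it, complex I had 9 genes higher in the soleus and 3 in the TA (median 0.060) and complexes II to V had 18 and 2 (median 0.15).

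Cytosolic ribosomal proteins were modestly higher in the soleus: 45 of 79 were called there and 6 in the TA, with a median of 0.30. Rps13 (1.35) and Rpl28 (1.13) led on the soleus side and Rps20 (−0.51) on the TA side. Without TA replicate 3 the counts were 46 and 6 (median 0.36). Of 25 chaperone genes 19 were higher in the soleus and 2 in the TA (median 0.81). Hspb7, a small heat shock protein of striated muscle, was at 1252 to 1734 CPM (median 1593) in the soleus and at 98.7 to 269 CPM (median 165) in the TA (log2 difference 3.20, SE 0.16, adjusted p = 2.03e-13). The inducible Hsp70 genes Hspa1a (2.70) and Hspa1b (2.52), near copies whose reads may be shared, and the lens and muscle crystallin Cryab (2.20) were higher in the soleus, while Hspb8 was higher in the TA (−0.53).

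**Figure D2:**
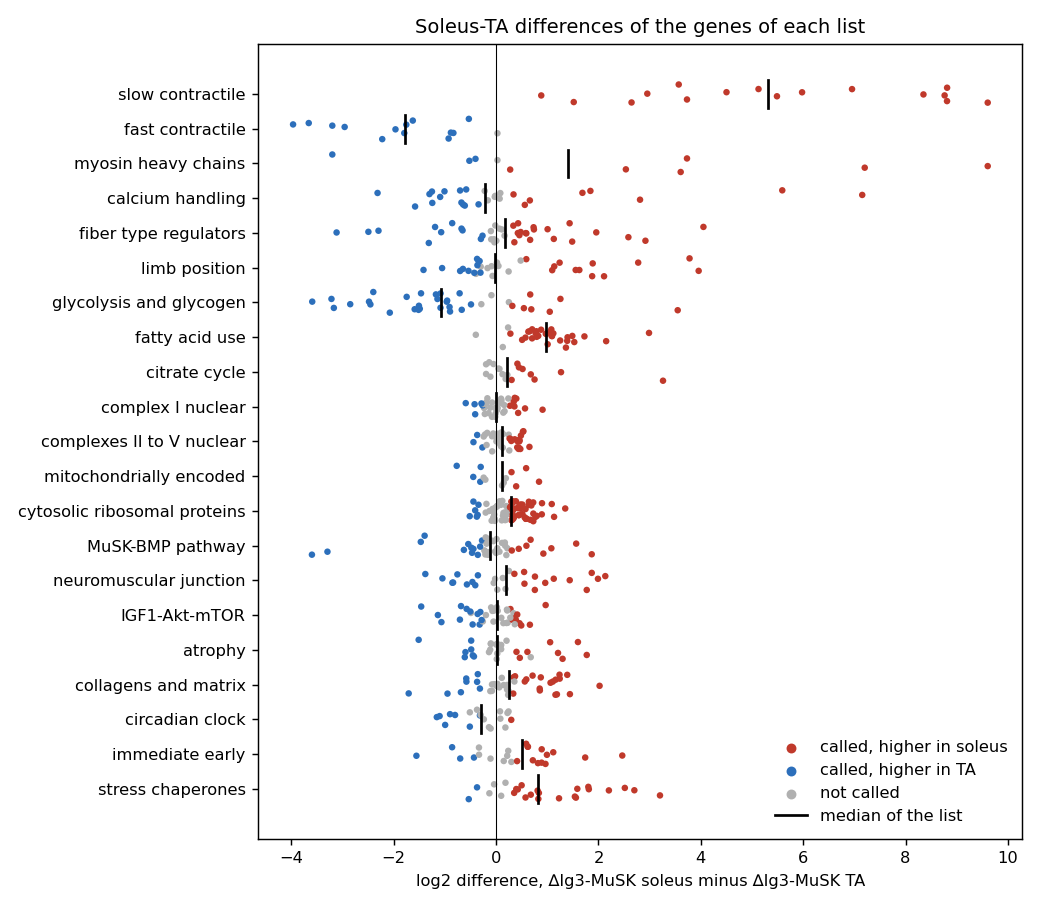
Log2 difference, soleus minus TA, of every tested gene (points) in each gene list other than the cell type markers, with the list's median (bar). Positive values are higher in the ∆Ig3-MuSK soleus. Slow contractile genes lie wholly above 0, fast contractile genes other than Myh1 and most glycolytic genes lie below, and respiratory chain genes close to 0.

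Musk itself (ENSMUSG00000057280, chr4:58285960-58374303, plus strand) was at 8.05 to 17.6 CPM (median 10.1) in the mutant soleus and at 2.60 to 3.98 CPM (median 3.07) in the mutant TA (log2 difference 1.87, SE 0.14, adjusted p = 1.72e-10). Every soleus library was above every TA library, and the mutant difference corresponded to 3.65-fold. The counts sum all exons of the gene, so they neither show nor test the missing exons 6 and 7. In the 36-library fit, the difference was 1.87 in the mutant and 1.83 in WT.

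Of the 42 genes listed for the MuSK-BMP pathway 40 passed the filter, 8 of them higher in the soleus and 12 in the TA. Over all tested genes these shares were 27.9% and 28.0%. Among the receptors, Bmpr1b, a type I receptor that binds MuSK, was at 7.20 to 10.5 CPM (median 8.77) in the soleus and at 2.56 to 3.56 CPM (median 2.85) in the TA (log2 difference 1.57, SE 0.082, adjusted p = 4.73e-13). Bmpr1a, the other type I receptor that the paper says binds MuSK, was not called at the fold limit (−0.21, SE 0.055). Its difference ran from −0.23 to −0.18 over left-out libraries. The type II receptor Bmpr2 was not called either (−0.079, SE 0.060). Of the ligands, Bmp5 was higher in the TA (−1.47), with 46.7% of its exon length overlapping another gene model, and Bmp4 was not called (−0.19, SE 0.14). Of the ligand inhibitors, Fst, encoding follistatin, which binds activins and myostatin, was higher in the soleus (1.08), as was the chordin-like Chrdl1 (0.92). Mstn, encoding the growth inhibitor myostatin, was at 0.986 to 2.58 CPM (median 1.33) in the soleus and at 11.4 to 22.2 CPM (median 14.8) in the TA (log2 difference −3.29, SE 0.17, adjusted p = 5.22e-13). The BMP-responsive gene Id1 (−0.20, SE 0.20) was not called, and the BMP Smad gene Smad9 was higher in the TA at a low level (0.523 to 1.03 CPM (median 0.761); log2 difference −1.40, SE 0.21, adjusted p = 4.74e-06).

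At the neuromuscular junction, 27 of 29 listed genes were tested, and 12 were higher in the soleus and 9 in the TA. The acetylcholine receptor subunits were called in different directions. Chrna1 (α) was at 21.8 to 32.6 CPM (median 26.1) in the soleus and at 4.32 to 12.2 CPM (median 5.32) in the TA (log2 difference 2.13, SE 0.16, adjusted p = 1.28e-10). Chrnd (δ) was also higher in the soleus (1.44, SE 0.16), whereas Chrnb1 (β) was higher in the TA (−0.85, SE 0.072) and so was the adult subunit Chrne (ε; −0.84, SE 0.14). Colq, the collagen tail that anchors acetylcholinesterase, was at 11.5 to 19.7 CPM (median 14.4) in the soleus and at 2.87 to 5.90 CPM (median 3.63) in the TA (log2 difference 1.99, SE 0.14, adjusted p = 4.50e-11), while the enzyme gene Ache was higher in the TA (−1.05, SE 0.15). Ncam1, an adhesion molecule of synaptic and denervated fibers, was at 9.61 to 15.4 CPM (median 10.7) in the soleus and at 2.88 to 4.59 CPM (median 3.54) in the TA (log2 difference 1.77, SE 0.11, adjusted p = 4.99e-12). Of the partners of MuSK, the agrin receptor Lrp4 was higher in the soleus (0.55, SE 0.10). Agrn (−0.46, SE 0.088), the adaptor Dok7 (−0.41, SE 0.17) and the receptor-clustering Rapsn (−0.35, SE 0.055) were higher in the TA. The Dok7 difference lay close to the threshold and was not called without TA replicate 5 (−0.32), without TA replicate 6 or without soleus replicate 1, 2, 3, 6, 7, 8 or 9, nor with robust quasi-likelihood or scaling by totals. The laminin chain Lama5 had the largest difference toward the TA in this list (−1.38).

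**Figure D3:**
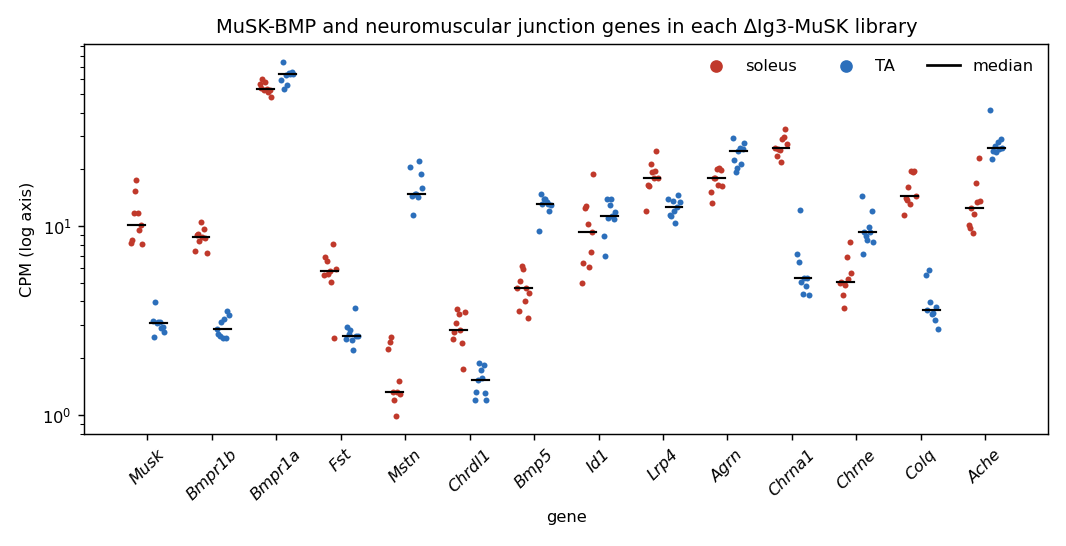
Levels (CPM, log axis) of Musk and other genes of the neuromuscular junction and the MuSK-BMP pathway in each ∆Ig3-MuSK soleus and TA library. The Musk levels of every soleus library (8.05 CPM or more) lie above those of every TA library (3.98 CPM or less).

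Growth and atrophy genes showed smaller differences. Of 39 genes of IGF1-Akt-mTOR signaling, 9 were higher in the soleus and 12 in the TA (median 0.016). Igf1 was at 5.97 to 14.3 CPM (median 12.2) in the soleus and at 7.70 to 15.5 CPM (median 9.80) in the TA, overlapped and was not called (−0.050, SE 0.16). Mtor was higher in the soleus (log2 difference 0.49, SE 0.075, adjusted p = 6.09e-06), at 41.7 to 53.1 CPM (median 47.8) against 25.9 to 42.0 CPM (median 35.7) in the TA, as was Akt1 (0.37, SE 0.050), whereas Akt2 was not called at the fold limit (−0.26, SE 0.038). Deptor, an inhibitor of mTOR, was at 19.3 to 25.4 CPM (median 23.1) in the soleus and at 56.7 to 70.7 CPM (median 61.8) in the TA (log2 difference −1.46, SE 0.057, adjusted p = 3.03e-15). Igfbp5, an IGF-binding protein, was higher in the TA (−1.07), and so was Irs1 (−1.14), 30.9% of whose exon length overlaps another gene model. Other IGF-binding protein genes, Igfbp2 (0.97) and Igfbp6 (0.46), differed toward the soleus. Of 28 atrophy genes 8 were higher in the soleus and 7 in the TA. The counts of the IGF1-Akt-mTOR and atrophy lists lay near the shares of all tested genes, 27.9% and 28.0%. The ubiquitin ligase Fbxo32 (atrogin-1) was at 295 to 412 CPM (median 341) in the soleus and at 303 to 393 CPM (median 334) in the TA, and its difference of 0.0028 (SE 0.067) changed sign between settings. Trim63 (MuRF1) was higher in the TA (−0.49, SE 0.075). The mitophagy gene Bnip3 (1.60) and the autophagy gene Gabarapl1 (1.21) were higher in the soleus, and Gadd45a, a stress gene of denervation, in the TA (−1.51).

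Markers of other cells in the muscle moved with the comparison to different degrees. All 9 tested adipocyte markers of 10 were higher in the soleus (median 2.26), and their summed level ran from 212 to 548.4 CPM in the soleus and from 149 to 238 CPM in the TA. Adipoq, the hormone adiponectin, was at 2.18 to 27.3 CPM (median 13.1) in the soleus and at 1.04 to 6.99 CPM (median 1.95) in the TA, ranges that overlapped (log2 difference 2.38, SE 0.41, adjusted p = 2.73e-05), and Ucp1 of brown fat had no count in any soleus library. Tendon markers were higher in the soleus in 9 of 10 cases (median 1.26). Their sum was 25.0 CPM in soleus replicate 8, 276 to 606 CPM in the other soleus libraries and 85.7 to 215 CPM in the TA, so soleus replicate 8 lay under every TA library. Without that library the count was again 9 of 10 (median 1.40), and no soleus library then overlapped the TA sums. Tnmd, the tendon gene tenomodulin, was at 0.240 to 22.2 CPM (median 14.5) in the soleus and at 1.77 to 5.43 CPM (median 4.76) in the TA (log2 difference 1.72, SE 0.38, adjusted p = 4.36e-04). Hemoglobin and other erythroid genes were higher in the soleus in 6 of 6 tested of 10 listed. Their sums ran from 593 to 2323 CPM in the soleus and from 375 to 704 CPM in the TA. Of the listed genes that were not tested, Epb42 was near 0 and Ahsp matched no gene ID. The part of fat, tendon and blood cells in the differences above was not tested.

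Markers of the remaining cell types were called in smaller numbers or in both directions. Schwann cell markers were called in 3 of 10 cases, all higher in the soleus, but in 1 without soleus replicate 8 and in 4 without TA replicate 3. Neuron markers were called in 3 cases toward the soleus and 2 toward the TA of 9 tested of 10 listed, with Gap43, a protein of growing axons (1.51), and Prph, the neuronal filament peripherin (1.08), at least 2-fold higher in the soleus at low levels (median 0.765 and 1.53 CPM in the soleus). Endothelial markers were called in 4 and 1 of 10, giving the soleus count first. Mural cell markers were called in 2 and 1 of 10, and in 2 and 0 without soleus replicate 8 or without TA replicate 3. Macrophage markers were called in 1 and 1 of 11, in 1 and 0 without soleus replicate 8 and in 0 and 1 without TA replicate 3. Fibro-adipogenic markers were called in 4 and 2 of 10. Satellite cell markers were also called in 4 and 2 of 10, with Pax7, the stem cell factor, higher in the soleus (log2 difference 0.79, SE 0.12, adjusted p = 4.41e-06). Pax3, its paralog, had 5 counts in all soleus libraries together and 427 counts in the TA libraries, where its level was 0.549 to 1.02 CPM (median 0.675). The myogenic factor Myod1 was higher in the TA (−1.07, SE 0.15), and Myf5 in the soleus (0.38, SE 0.11).

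**Figure D4:**
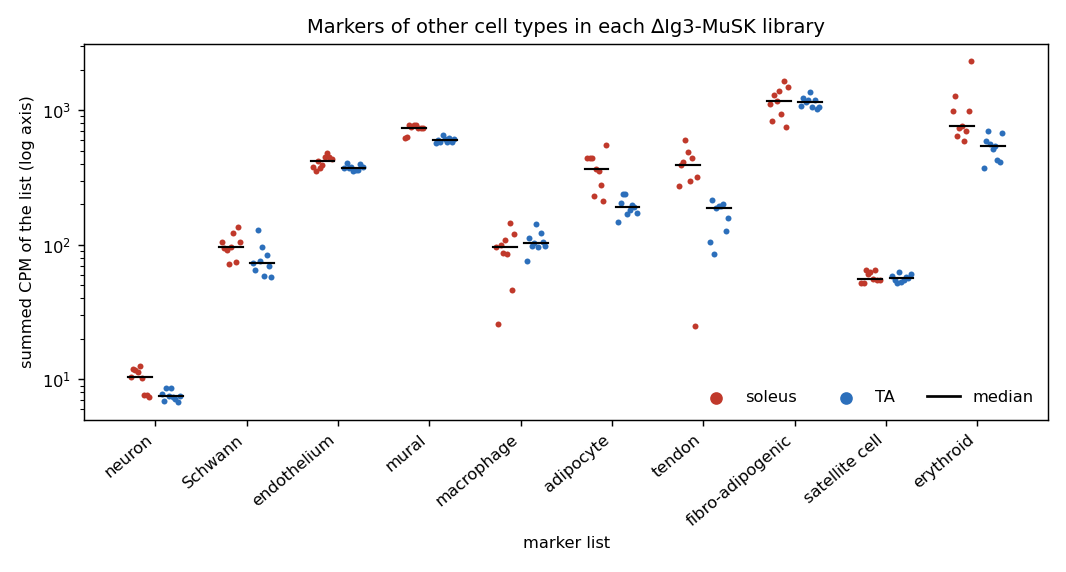
Summed levels (CPM, log axis) of marker genes of other cell types in each ∆Ig3-MuSK soleus and TA library. Soleus replicate 8 lies under every TA library for tendon markers (25.0 CPM), and soleus replicate 9 has the highest erythroid sum (2323 CPM).

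Matrix genes did not move as a block. Of 41 genes for collagens and matrix, 19 were higher in the soleus and 8 in the TA, and without soleus replicate 8 the counts were 22 and 6. The growth-factor-like matrix gene Ccn2 was at 8.26 to 109 CPM (median 49.5) in the soleus and at 5.68 to 17.3 CPM (median 11.9) in the TA (log2 difference 2.02, SE 0.33, adjusted p = 1.37e-05). Col8a1 (1.44) and Col11a1 (1.39) were higher in the soleus, and Col6a6 (−1.71) and the matrix protein tenascin Tnc (−0.95) in the TA. Of 24 immediate early genes 13 were higher in the soleus and 4 in the TA (15 and 2 without TA replicate 3), led by Atf3 (2.47) and, toward the TA, by the orphan receptor Nr4a1 (−1.56). The circadian clock list had 1 gene higher in the soleus, Nr1d1 (0.30; not called without TA replicate 5, at 0.24), and 7 of 19 higher in the TA, among them Per3 (−1.16), Bhlhe41 (−1.10), Rora (−0.99) and Tef (−0.90). Times of collection were not given in the sources used here.

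The TA had its own leading genes apart from the contractile ones. Cyp4f39, a cytochrome P450, was at 0.147 to 0.620 CPM (median 0.233) in the soleus and at 13.5 to 24.5 CPM (median 15.8) in the TA (log2 difference −5.93, SE 0.19, adjusted p = 2.06e-16). Others were the calcium channel subunit Cacna2d4 (−5.35), the membrane protein gene Lrtm2 (−4.84) and the polyamine oxidase Smox (−3.93). The potassium channel Kcnc4 (−3.90) and the adhesion gene Mdga1 (−3.85) were further ones. With Cyp4f39, Pvalb, Actn3, Pfkfb3 and Mybph they were the 10 largest among genes averaging at least 10 CPM in the TA, predicted genes aside. Mmp13 averaged less and differed more (−7.10). Mybph, a myosin-binding protein (−3.57), shares 49.9% of its exon length with the neighboring Adora1. Rp1, a gene better known from photoreceptors, was among the 10 largest differences on the soleus side at the same limit of 10 CPM. It was at 10.2 to 14.4 CPM (median 12.3) in the soleus and at 0.0708 to 0.183 CPM (median 0.107) in the TA (log2 difference 6.70, SE 0.12, adjusted p = 6.61e-21).

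Most genes with a large muscle difference in the mutant differed in the same direction in WT. The genes were chosen by their mutant difference, so a difference present in WT alone is not among them. Of the 2803 genes at least 2-fold different between the mutant muscles, 2798 had the same sign in WT and 2699 were called in the same direction there, with a median absolute difference of 1.46 in the mutant and 1.44 in WT. For 1030 of the 2803 (36.7%) the 95% interval of the change in the soleus-TA difference between genotypes lay within 1.5-fold. For the rest it reached past 1.5-fold, so closeness to WT was not shown for them. The 5 genes of opposite sign, Pcsk2, Dmkn, Gm23202, Rmrp and 4933431C10Rik, were named after their values were seen; each had a mean under 1 CPM in both muscles. The muscle-by-genotype interaction, fitted over the 36 libraries, had an unadjusted p under 0.05 for 5193 of 20841 genes (24.9%). A share of 0.05 would be expected if the soleus-TA difference of no gene differed between genotypes. The interaction passed an adjusted p-value of 0.05 for 0 of 20841 genes (0%). This count depended on the test and the libraries: DESeq2 called 337 genes and limma-voom 1352, and edgeR's test called 982 without ∆Ig3-MuSK TA replicate 3 and 1450 without WT TA replicate 9.

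**Figure D5:**
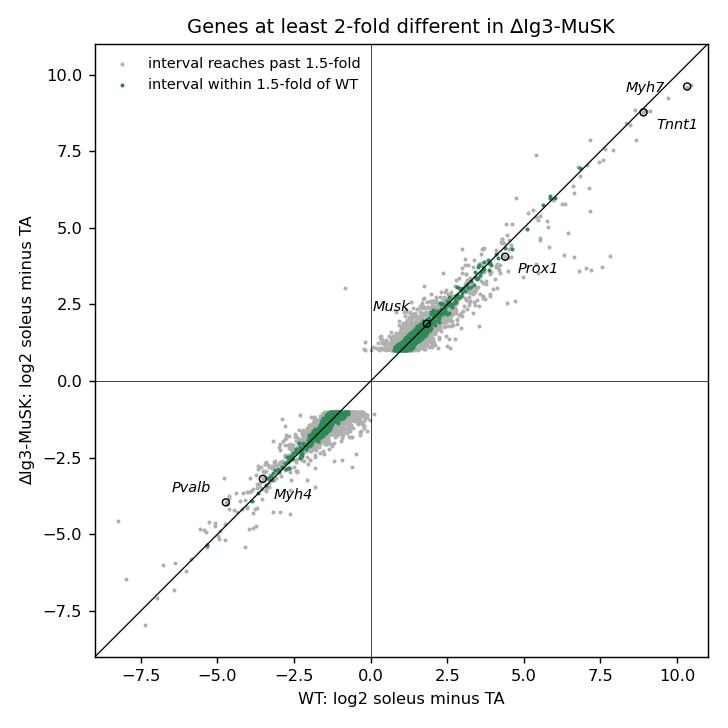
Log2 difference between soleus and TA in ∆Ig3-MuSK (y axis) against that in WT (x axis), both from the 36-library fit, for genes at least 2-fold different between the mutant muscles. The points follow the diagonal, and 2798 of 2803 have the same sign in both genotypes.

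For the genes that mark the muscles the values stood side by side. The Myh7 difference was 9.61 in the mutant and 10.33 in WT, a difference of −0.71 (95% interval −1.89 to 0.46). For Myh4 it was −3.19 and −3.52, a difference of 0.33 (−1.05 to 1.70). For Musk the soleus-TA difference changed by 0.038 between genotypes (−0.33 to 0.41). This value does not compare the Musk level of a mutant muscle with that of the same WT muscle. By qRT-PCR the paper reports less Musk transcript in mutant than in WT soleus, and comparable levels in the EDL, a fast muscle. The genes with the smallest interaction p were Slc1a2, a glutamate transporter, Hpca, Ramp1, Celf4 and Osbpl8. Slc1a2 was higher in the soleus of the mutant (0.69) and lower in that of WT (−0.35), which gave a difference of 1.04 (95% interval 0.66 to 1.43; adjusted p = 0.0652). The calcium sensor gene Hpca had 0.16 and −0.83 (adjusted p = 0.0652), and Ramp1, a subunit of the CGRP receptor, 0.21 and −0.41 (adjusted p = 0.0652). In the mutant fit alone, neither Hpca nor Ramp1 passed the limits for a muscle difference.

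Some gene groups had more interaction p-values under 0.05, unadjusted, than the 24.9% of all genes. Complex I had 32 of 36, each with the soleus relatively higher in the mutant, and its median muscle difference was 0.010 in the mutant and −0.30 in WT. Complexes II to V had 29 of 42 and mitochondrially encoded genes 10 of 13, in the same direction. Ribosomal proteins had 51 of 79, also in that direction, with medians of 0.31 in the mutant and 0.080 in WT. Collagens and matrix had 22 of 41 in the opposite direction, with a median of 0.24 in the mutant and 0.86 in WT. The mutant median includes soleus replicate 8, which had low matrix transcripts. In the fit of the mutant muscles alone it was 0.25 with that library and 0.34 without it. The neuromuscular junction list had 10 of 27, all with the soleus relatively lower in the mutant, with medians of 0.19 in the mutant and 0.58 in WT. Mural cell markers had 5 of 10 and endothelial markers 4 of 10 in that direction, and the citrate cycle had 9 of 18 and neuron markers 4 of 9 with the soleus relatively higher in the mutant. Fast contractile genes (4 of 14), glycolysis and glycogen (10 of 35) and the other lists lay near or under the share of all genes. None of these genes passed the adjusted threshold in the 36-library fit. Without ∆Ig3-MuSK TA replicate 3, the library with high respiratory chain transcripts, 16 complex I, 18 ribosomal protein, 2 matrix and 1 neuromuscular junction genes passed it. Without WT TA replicate 9 these counts were 6, 20, 9 and 4, with limma-voom 6, 17, 6 and 2, and with DESeq2 1, 0, 2 and 1. Without ∆Ig3-MuSK soleus replicate 8 the interaction passed it for 0 of all tested genes. The members of these lists share their libraries and are not independent of one another.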

How the data were processed

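RNA-seq was done on 9 soleus and 9 TA muscles of WT and of ∆Ig3-MuSK mice, and samples were grouped by the muscle and genotype in their labels. The authors prepared non-stranded libraries, trimmed reads with Trimmomatic, aligned them to mm10 (GRCm38) with GSNAP, and obtained read counts per gene from htseq-count. The deposited values are whole-number counts without normalization or a gene filter, in 1 table per muscle. The annotation release and counting mode were not given in the sources used here. Without strand, reads of overlapping genes on opposite strands cannot be told apart. The tables held 0 columns of other samples. Of 51912 gene IDs, 51719 had a symbol, and coordinates came from a GRCm38 annotation.

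The 18 mutant libraries were joined by gene ID and tested in R 4.3.3 with edgeR 4.0.16 (filterByExpr with minimum count 10 and minimum total 15, TMM factors, glmQLFit and glmQLFTest, no covariates). Calls used Benjamini-Hochberg adjustment with p under 0.05 and a difference of 1.2-fold or more, the study's limits for its own DESeq2 comparisons in iDEP, or at least 2-fold. The interaction with genotype came from 1 quasi-likelihood fit of all 36 libraries with a mean per group, and its 95% intervals from the quasi-likelihood standard error. WT values set beside mutant values came from that fit. Variance shares used log2 CPM with a prior count of 2. Myosin shares used counts per kilobase of exon. With 46397769 or more counts per mutant library, counting error was small for most genes, and SE and SD reflect the spread among 9 muscles per group. The procedures were run on simulated counts in which few genes were changed, by 2-fold and evenly in both directions. That setting does not test scaling where differences are as many and as large as those between the muscles.

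The comparison and the 31 gene lists were chosen with earlier results of these data known. Named genes were Myh7, Myh4, Musk and the myosin heavy chains, the 10 largest differences in each direction among genes of at least 10 CPM in the higher muscle, up to 4 called genes per direction and list, genes at the heart of a list, the 5 with the smallest interaction p and those with the largest spread. Atp2a1, Chrnd, Ldha, Sox6 and the markers at or near 0 were named after their values were seen. Some genes that the rule names are not reported here.

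The alternatives tried were DESeq2 1.42.0, voom with quality weights (limma 3.58.1), RLE, upper-quartile, total and trimmed scaling, other count filters, another prior count, the label number or the Rep number as a block and each library left out. The list counts without soleus replicate 8 and without TA replicate 3 were added after the data were seen.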

Additional observations from a re-analysis of the deposited data

Results flagged for a closer look

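The values here lay apart from the other 8 libraries of their muscle, with a gap to the nearest library, relative to the whole range, above Dixon's critical value for 9 values. They are 20 of 150 tested groups of values, and chance alone sets apart about 1 in 20. Many share a library, so they are not separate events. Their causes were not tested.

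TA replicate 3 had the highest sums for complex I (6930 CPM), complexes II to V (16574 CPM), cytosolic ribosomal proteins (5294 CPM) and stress chaperones (3716 CPM). It was also the highest TA library for Musk (3.98 CPM) and for the acetylcholine receptor gene Chrna1 (12.2 CPM), both still under every soleus library. TA replicate 1 had the highest Myh4 share (92.0%) and sum of fast contractile genes (112213 CPM), and the lowest Myh1 share (6.91%) and Lpl level (177 CPM). TA replicate 4 had the highest TA levels of the slow genes Myh7 (37.4 CPM) and Atp2a2 (56.2 CPM) and of the fat gene Adipoq (6.99 CPM). TA replicate 6 had the highest Ppargc1a (40.5 CPM), and TA replicate 2 the highest sum of the MuSK-BMP list (3423 CPM).

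In the soleus, replicate 8 had the lowest Tnmd, a tendon gene (0.24 CPM), and the highest summed myosin heavy chains (31421 CPM). Soleus replicate 9 had the highest erythroid sum (2323 CPM). Soleus replicate 1 had the highest sum for fatty acid use (14081 CPM) and the highest soleus level of Cyp4f39 (0.62 CPM), a gene of the TA.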

How the results depend on the processing

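The counts of genes higher in each muscle stayed within 1.5 times under the alternatives run, except that with no filter on low counts 2854 genes were at least 2-fold higher in the soleus and 2385 in the TA, and that with at least 10 counts in every library 840 were at least 2-fold higher in the TA; these settings change which genes are tested. Muscle took 84.1% of the variance over the 1000 most variable genes. The interaction count was 0 with RLE factors and with no filter, but 337 with DESeq2 and 1352 with limma-voom. Leaving out 1 of the 36 libraries gave 0 to 1450, with counts above 0 without WT TA replicate 9 (1450), ∆Ig3-MuSK TA replicate 3 (982), WT soleus replicate 1 (99), ∆Ig3-MuSK soleus replicate 9 (10), WT soleus replicates 7 (5) and 2 (3), ∆Ig3-MuSK soleus replicate 7, ∆Ig3-MuSK TA replicate 9 and WT TA replicate 1 (2 each) and WT TA replicate 8 (1). The cause was not tested.

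A soleus and a TA library shared a label number for 8 mutant numbers. The correlations of their deviations from the muscle means ran from 0.023 to 0.31, and 6 of the 8 were over 0.1. Of the 8 soleus libraries, 6 correlated best with the TA library of their own number. Whether a shared number means a shared animal cannot be settled from the sources used here. The main fit and the permutation tests took no pairs, because the study does not pair the muscles. For the Rep numbers the correlations ran from −0.15 to 0.27, and 1 of 9 matched best. With the label number as a replicate block, 5616 and 5556 genes were higher in the soleus and the TA, 1563 and 1208 at 2-fold, the interaction called 1 gene (Bhlhe41) and Musk differed by 1.85. With the Rep number as a block the counts were 5489, 5542, 1530 and 1268, and Musk differed by 1.83.

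Of 222 named genes, 196 kept their call, or the lack of one, under every alternative run. Changes of sign came from genes that were not called. The Fbxo32 difference was −0.0084 with upper-quartile factors, −0.0034 with limma-voom and −0.0016 with the Rep number as a block, and −0.034 to 0.036 when each library was left out. Igf1 differed by 0.00061 with totals alone and by 0.026 with the label number block, and by −0.11 to 0.029 over left-out libraries. Myh1 differed by −0.15 with the label number block and by −0.066 to 0.12 over left-out libraries. Depth limits genes near the filter, such as Pax3 in the soleus with 5 counts in all.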

Other observations

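The imprinted growth RNAs H19 and Meg3 differed between the mutant muscles in opposite directions; they were chosen after their values were seen. H19 was at 1192 to 1721 CPM (median 1464) in the soleus and at 153 to 520.2 CPM (median 235) in the TA (log2 difference 2.47, SE 0.18, adjusted p = 1.05e-10). Meg3 was at 10.8 to 16 CPM (median 12.5) in the soleus and at 30.6 to 46.9 CPM (median 39.2) in the TA (log2 difference −1.57, SE 0.094, adjusted p = 4.09e-12). Neither pair of groups overlapped.

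Within the mutant soleus, the 5 genes of largest spread among those with a mean of at least 5 CPM were the tendon and cartilage matrix genes Fmod, Chad, Col11a1, Tnmd and Comp, with SDs of log2 CPM from 1.88 to 2.12, against a median SD of 0.12 over 10677 genes. Each had its lowest value in soleus replicate 8. Within the mutant TA they were Mmp13, Angptl7, Myh7, Pfkfb3 and Pdk4, with SDs from 1.09 to 1.54, against a median of 0.13 over 10647 genes. Mmp13, a collagenase, ran from 0.54 to 14.4 CPM in the TA and had 28 counts in all soleus libraries together, against 5091 in the TA. Pdk4, which turns muscle from glucose to fat, ran from 88.1 to 964 CPM in the TA. Fkbp5 and Per1, chosen after their values were seen, are known targets of glucocorticoids. Fkbp5 was at 104 CPM in TA replicate 5 and 94.6 CPM in TA replicate 6, and at 17.3 to 29.2 CPM in the other TA libraries. Per1 had its highest levels in the same libraries, 118 and 88.3 CPM, with 21.3 to 56.6 CPM in the others. Times and order of collection were not given in the sources used here.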
